A study of Homo sapiens with 8 samples.

Results

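The serine synthesis and one-carbon set comprises 10 genes, PHGDH, PSAT1, PSPH, SHMT1, SHMT2, MTHFD1, MTHFD1L, MTHFD2, ALDH1L2 and SLC1A4, taken by symbol from the 67060 genes of the count table. All 10 were found once and all 10 passed the filter on low counts, which left 21993 genes tested. The samples were 8 RNA sequencing libraries of SH-SY5Y, an established human neuroblastoma line labelled as neuronal progenitor. Cells at 80% confluence received 0.5 ul of adenovirus and were harvested at 48 h. The virus carried BioID, a biotin ligase for proximity labelling, joined either to Flag-tagged ERRg, an orphan nuclear receptor encoded by ESRRG (4 libraries, called ERRg), or, as the control, to GFP carrying an NLS that sends it to the nucleus (4 libraries, called GFP). Both groups therefore carried the virus and the ligase, and no untreated cells are among the samples. ERRg here is a fusion protein supplied by a virus and not the receptor at its own level, and the line derives from a single tumour. The comparison asks how the fusion alters transcript levels.

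Cells make serine from the glycolytic intermediate 3-phosphoglycerate. PHGDH oxidises it, PSAT1 adds an amino group and PSPH removes the phosphate. SHMT enzymes then split serine into glycine and a one-carbon unit carried on folate, SHMT1 in the cytosol and SHMT2 in mitochondria. In mitochondria, MTHFD2 oxidises the unit, MTHFD1L releases it as formate and ALDH1L2 burns it to carbon dioxide while making NADPH. In the cytosol, MTHFD1 takes up formate for purine and thymidylate synthesis. SLC1A4 is a neutral amino acid transporter of the plasma membrane that carries serine. In brain, serine is made mainly by astrocytes and passed to neurons, and several of these genes are known targets of the stress-induced transcription factor ATF4.

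Values below are CPM, gene reads per M, scaled by TMM (trimmed mean of M values). Gene reads numbered 21.0 to 23.0 M in ERRg and 27.7 to 35.5 M in GFP, and ESRRG was at 34.9 ± 2.34 CPM without and 808 ± 73.2 CPM with the ERRg virus (SD, n = 4 each). Reads outside annotated exons made up 45.5% to 48.3% of all reads in ERRg and 16.2% to 24.2% in GFP, so the groups differed in library composition as well as in treatment. ERRg replicates 1 and 2, and 3 and 4, resembled each other more closely than the remaining pairs (chi-square per gene 2.90 and 5.03 against 10.01 to 22.6). With each of those pairs summed into 1 sample, the calls of the 10 genes were the same. Of 9 markers of noradrenergic neuroblastoma, 6 were at 1 CPM or more in GFP, while TH and CHGA were listed at 0. Of 5 neural progenitor markers, NES, SOX2 and MSI1 were present, SOX1 was listed at 0 and PAX6 had at most 5 reads. All 3 of those present were lower in ERRg (NES -1.36, SOX2 -1.02 and MSI1 -1.35 on the log2 scale), as were 5 of the noradrenergic markers and the epithelial KRT8 (-0.999) and KRT18 (-0.36). Summed levels in GFP and ERRg were 594 to 791 and 256 to 293 CPM for progenitor, 590.3 to 679 and 350.3 to 414 CPM for noradrenergic and 236 to 316 and 171 to 242 CPM for epithelial markers. Leukocyte markers summed to at most 0.360 CPM. Fibroblast markers summed to 1485 to 1661 CPM in GFP and 843 to 932 in ERRg, with 4 of 5 lower and LUM higher. Single genes held most of 3 sums. In GFP and ERRg, COL3A1 (fibroblast) was at 1432 and 809 CPM, NES (progenitor) at 630 and 246 and KRT18 (epithelial) at 234 and 183. The part of the cells so marked in the results was not tested.

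Of the 10 genes, 9 were lower in ERRg and 1, ALDH1L2, was higher by edgeR at an adjusted p under 0.05. Over all genes tested, 35.9% were lower and 38.8% higher, 74.7% in all. With DESeq2 size factors in edgeR the same 9 and 1 were called, against 36.8% lower and 37.6% higher (74.4% in all). The median log2 fold change of the 10 genes, ERRg over GFP, was -0.88, against 0.09 over all genes tested. The 9 lower genes had ERRg libraries that all lay below the GFP libraries, against 34.6% of all genes in that direction, 33.9% in the other and 68.4% in either. With TMM, the falls were largest in PHGDH, SHMT1 and SHMT2 and small in MTHFD1 and MTHFD2. That order depended on the fit. With offsets for transcript composition, described below, SHMT2 (-0.65) fell less than PSAT1 (-0.97) and SLC1A4 (-0.81), and MTHFD2 was at -0.49. In RNA from whole cultures, fewer cells of a type and less RNA per cell cannot be told apart.

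**Figure D1:**
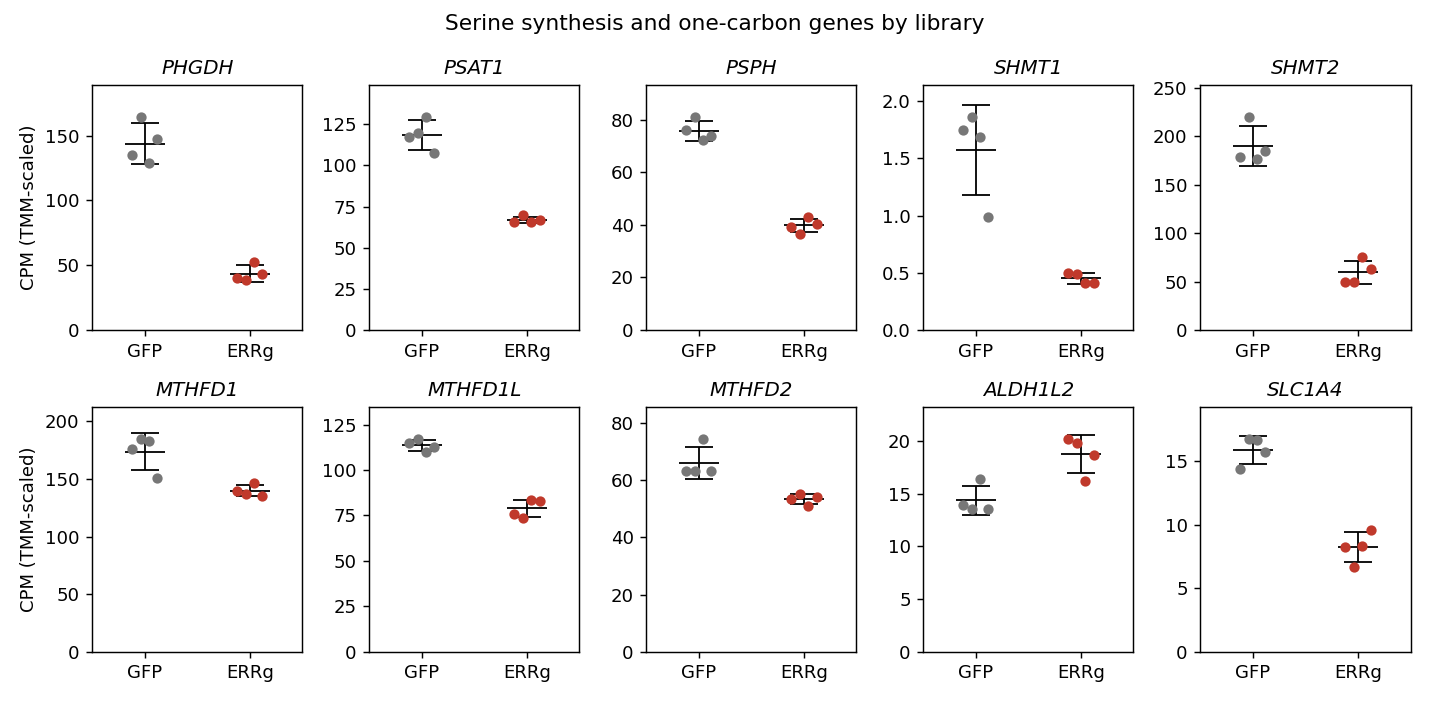
TMM-scaled CPM (y axis, linear, from 0) of the 10 genes in each of 4 GFP (grey) and 4 ERRg (red) libraries, with bars for the mean and SD. The groups are separate in each panel except that of ALDH1L2, where the highest GFP library (16.4 CPM) lies above the lowest ERRg library (16.2 CPM).

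With TMM, the serine synthesis enzymes all fell, by unequal amounts. The ratios between them, given below, did not pass 0.05 after adjustment. With an offset for GC content alone, also described below, PHGDH (-1.16) and PSAT1 (-1.06) were close, and PSPH was at -0.53. PHGDH, which catalyses the first step (ENSG00000092621.13, chromosome 1 from 119648411 to 119744226, GRCh38), was at 135, 164, 129 and 147 CPM in GFP replicates 1 to 4 and at 39.8, 38.5, 52.6 and 43.1 CPM in ERRg replicates 1 to 4. The highest ERRg library, replicate 3, was far below the lowest GFP library. PHGDH fell 3.31-fold (log2 fold change -1.73, SE 0.11, edgeR adjusted p = 8.67e-11). Of the genes tested, 3.21% had a lower log2 fold change.

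PSAT1, the aminotransferase of the second step (ENSG00000135069.14, chromosome 9 from 78297143 to 78330093), was at 117, 120, 130 and 108 CPM in GFP and at 65.5, 69.7, 65.6 and 66.5 CPM in ERRg. The ERRg libraries were tightly grouped and all lay below the GFP libraries. The fall was 1.77-fold (-0.83, SE 0.09, edgeR adjusted p = 3.10e-08). PSPH, the phosphatase that completes serine (ENSG00000146733.14, chromosome 7 from 56011051 to 56051604), was at 76.0, 81.1, 72.3 and 74.0 CPM in GFP and at 39.3, 36.7, 42.9 and 40.5 CPM in ERRg. It fell 1.91-fold (-0.93, SE 0.09, edgeR adjusted p = 7.64e-09), again with no overlap. PSPH has a near-identical copy, PSPHP1, with 53 to 76 reads in ERRg libraries and 95 to 177 in GFP libraries, against 954 to 2352 for PSPH over all 8. Reads could be split between the copies, so the PSPH values carry that uncertainty.

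Both serine hydroxymethyltransferases fell, from very different levels. With offsets for transcript composition, described below, SHMT2 was at -0.65 (SE 0.06) and SHMT1 at -1.21 (SE 0.27). SHMT2, the mitochondrial enzyme (ENSG00000182199.11, chromosome 12 from 57229327 to 57234935), was at 179, 220, 176 and 184 CPM in GFP and at 49.99, 49.9, 74.9 and 62.8 CPM in ERRg. ERRg replicates 3 and 4 were above replicates 1 and 2 for SHMT2, and all 4 lay far below the GFP libraries. The fall was 3.20-fold (-1.68, SE 0.12, edgeR adjusted p = 2.34e-10). SHMT1, the cytosolic enzyme (ENSG00000176974.20, chromosome 17 from 18327860 to 18363563), was at 1.75, 1.86, 1.69 and 0.988 CPM in GFP and at 0.494, 0.488, 0.410 and 0.407 CPM in ERRg. Its fall of 3.49-fold (-1.80, SE 0.28, edgeR adjusted p = 7.39e-06) came from few reads, 10 to 13 in each ERRg library and 24 to 54 in each GFP library. Its pseudogene SHMT1P1 had 26 to 40 reads in ERRg libraries and 12 to 22 in GFP libraries, so assignment of reads between the 2 genes is uncertain at this depth.

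Library composition was set beside the PHGDH and SHMT2 levels inside the groups. GFP replicate 2 had the smallest share of reads outside exons in its group (16.2%) and the highest PHGDH (164 CPM) and SHMT2 (220 CPM). ERRg replicate 3 had the smallest share in its group (45.5%) and also the highest PHGDH (52.6 CPM) and SHMT2 (74.9 CPM). The other GFP libraries did not follow that order. GFP replicates 3, 4 and 1, with 20.1%, 23.2% and 24.2% of reads outside exons, had PHGDH at 129, 147 and 135 CPM and SHMT2 at 176, 184 and 179 CPM. ERRg replicates 4, 2 and 1 had 45.8%, 47.3% and 48.3% of reads outside exons. Their PHGDH was at 43.1, 38.5 and 39.8 CPM and their SHMT2 at 62.8, 49.9 and 49.99 CPM. In ERRg both genes thus followed the order except between replicates 2 and 1. With that share as a covariate, none of the 10 genes was called, as against 0.0364% of all genes (0.00909% lower and 0.0273% higher), and the log2 fold changes ran from -0.77 (PHGDH) to 0.23 (MTHFD1). The share separates the groups without overlap, so in this fit composition and treatment cannot be told apart.

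With TMM, the folate-interconverting enzymes changed less. With the composition offsets, described below, MTHFD2 (-0.49) fell about as much as PSPH (-0.51), while MTHFD1L (-0.19) and MTHFD1 (-0.18) still changed less. MTHFD1L, the mitochondrial formate-releasing synthetase (ENSG00000120254.16, chromosome 6 from 150865549 to 151101887), was at 115, 117, 110 and 112 CPM in GFP and at 75.7, 73.6, 83.3 and 82.7 CPM in ERRg, a 1.44-fold fall (-0.53, SE 0.08, edgeR adjusted p = 1.05e-05). MTHFD1, its cytosolic counterpart with additional dehydrogenase and cyclohydrolase activities (ENSG00000100714.17, chromosome 14 from 64388031 to 64463457), was at 176, 185, 183 and 151 CPM in GFP and at 140, 137, 147 and 135 CPM in ERRg. GFP replicate 4 was the closest to the ERRg libraries, which it did not overlap. The fall was 1.24-fold (-0.31, SE 0.09, edgeR adjusted p = 0.00303). MTHFD2, the mitochondrial dehydrogenase (ENSG00000065911.13, chromosome 2 from 74198562 to 74217565), was at 63.3, 63.4, 74.6 and 63.1 CPM in GFP and at 53.6, 55.3, 51.1 and 54.0 CPM in ERRg, also 1.24-fold lower (-0.31, SE 0.09, edgeR adjusted p = 0.00390). In GENCODE 29, 33.2% of the exonic bases of MTHFD2 are overlapped by exons of genes on the opposite strand, SLC4A5 among them, as are 11.04% of those of MTHFD1. The strand setting of the counting is not stated, so reads of such partners may be included. Reads in shared stretches may also have been left uncounted as ambiguous. Ambiguous reads made up 5.05% to 5.96% of all reads in ERRg and 10.9% to 14.1% in GFP. Their part in the MTHFD2 and MTHFD1 values was not tested.

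ALDH1L2, the mitochondrial 10-formyltetrahydrofolate dehydrogenase (ENSG00000136010.14, chromosome 12 from 105019784 to 105084577), was the exception in direction. It was at 14.0, 13.6, 16.4 and 13.6 CPM in GFP and at 20.2, 19.9, 16.2 and 18.7 CPM in ERRg. The groups touched, with GFP replicate 3 just above ERRg replicate 3. It rose by 0.38 on the log2 scale (SE 0.11, edgeR adjusted p = 0.00308), a call that ended with offsets for transcript composition, described below.

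The transporter SLC1A4 (ENSG00000115902.11, chromosome 2 from 64988477 to 65023865) was at 14.3, 16.8, 16.6 and 15.7 CPM in GFP and at 8.23, 6.69, 8.33 and 9.59 CPM in ERRg. No library of one group came near the other. SLC1A4 fell 1.93-fold (-0.95, SE 0.12, edgeR adjusted p = 3.98e-07).

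Promoter sequences from RefSeq (GRCh38.p14, 250 bases before to 50 after a start) matched 7 of the 10 genes, with 11 start sites. PSPH, SHMT2 and ALDH1L2 were not matched. They were searched on both strands for TGATGNAAN, the core of the element bound by ATF4 with C/EBP partners, for TCAAGGTCA, an element of estrogen-related receptors, and for CACGTG, the E-box bound by MYC. Over 35116 promoters of this length, 3.61% held the first, 0.353% the second and 7.26% the third. The first was found in MTHFD1L, in overlapping windows of 3 of its 4 starts, and in 1 of the 2 windows of SLC1A4. The E-box was found in the same 3 windows of MTHFD1L and in MTHFD1. TCAAGGTCA was not found in any of the 11 windows. Of the windows that hold the first element, 1 of MTHFD1L and that of SLC1A4 are printed with matches in capitals, beside that of PHGDH, the gene of the first step, in which none of the 3 was found. In SLC1A4 the match is on the reverse strand, and in MTHFD1L the 6 capitals are the E-box and the 9 capitals the ATF4 element. MTHFD1L, SLC1A4 and PHGDH are all genes of the forward strand. A match describes letters and shows no binding.
MTHFD1L chr6:150866236-150866535: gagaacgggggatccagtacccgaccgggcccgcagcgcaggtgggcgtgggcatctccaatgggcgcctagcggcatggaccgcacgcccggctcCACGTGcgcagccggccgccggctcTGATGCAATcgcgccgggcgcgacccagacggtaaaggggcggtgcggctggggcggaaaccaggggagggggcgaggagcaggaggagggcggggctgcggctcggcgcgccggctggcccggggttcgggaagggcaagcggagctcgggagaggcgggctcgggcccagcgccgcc
SLC1A4 chr2:64989149-64989448: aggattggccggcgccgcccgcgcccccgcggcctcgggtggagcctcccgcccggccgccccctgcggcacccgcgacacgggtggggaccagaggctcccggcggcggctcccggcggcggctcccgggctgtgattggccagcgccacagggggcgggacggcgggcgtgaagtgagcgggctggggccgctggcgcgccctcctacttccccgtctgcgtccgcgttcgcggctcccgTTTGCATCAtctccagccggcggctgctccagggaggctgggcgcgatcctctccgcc
PHGDH chr1:119711684-119711983: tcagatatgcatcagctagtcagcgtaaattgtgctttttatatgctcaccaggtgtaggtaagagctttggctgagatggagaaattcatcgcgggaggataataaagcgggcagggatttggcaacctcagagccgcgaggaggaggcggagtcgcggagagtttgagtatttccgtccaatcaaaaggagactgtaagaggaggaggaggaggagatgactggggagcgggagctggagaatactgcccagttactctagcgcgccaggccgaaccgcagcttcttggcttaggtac
Of these 3 genes, PHGDH had the largest fall with TMM (-1.73), SLC1A4 an intermediate one (-0.95) and MTHFD1L the smallest (-0.53). MTHFD2, whose window held no match, was at -0.31. A link between matches and falls was not tested.

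The choice of scaling set how many of the 10 genes were called. With upper-quartile factors 7 were lower, and with library totals 6 (PHGDH, PSAT1, PSPH, SHMT1, SHMT2 and SLC1A4), while ALDH1L2 was higher in both. Over all genes, 27.5% were lower and 50.2% higher with upper-quartile factors (77.7% in all), and 24.5% lower and 53.6% higher with library totals (78.1% in all). MTHFD1 and MTHFD2 then had log2 fold changes of -0.01 and -0.0008 with upper-quartile factors (edgeR adjusted p = 0.913 and 0.994) and 0.090 and 0.098 with library totals (0.361 and 0.350), and MTHFD1L was at -0.12 with library totals (0.208). The median of all genes moved from 0.09 with TMM to 0.40 and 0.50. Relative to that median, MTHFD1 lay at -0.41, -0.41 and -0.41 under the 3 scalings, MTHFD2 at -0.40, -0.40 and -0.40 and ALDH1L2 at 0.29, 0.29 and 0.29. These 3 scalings shift all genes by nearly the same amount. The position of each gene was therefore bound to hold, and the zero line moved.

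Fold changes in these libraries followed the GC content of transcripts, which accounted for 43.4% of their variance over 13426 coding genes. GC content of the longest transcript ran from 41.4% in MTHFD2 to 57.0% in SHMT2 among the 10 genes. With offsets for GC content, transcript length and gene span, the 9 genes were again lower, against 41.7% of coding genes lower and 30.4% higher, with a median of -0.58. SHMT2, the gene of highest GC content, went from -1.68 to -0.65 (SE 0.06, edgeR adjusted p = 1.04e-08), and PHGDH from -1.73 to -1.27 (SE 0.07, edgeR adjusted p = 6.59e-11). PSAT1 and MTHFD2, both of low GC content, went the other way, to -0.97 (SE 0.05) and -0.49 (SE 0.05). ALDH1L2 was at 0.07 (SE 0.07, edgeR adjusted p = 0.386). Offsets built from GC content only left 7 of them lower, against 40.8% of coding genes lower and 31.9% higher (72.7% in all). In that fit MTHFD1 (-0.08, edgeR adjusted p = 0.173), MTHFD1L (0.02, 0.688) and ALDH1L2 (0.13, 0.117) were not called.

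**Figure D2:**
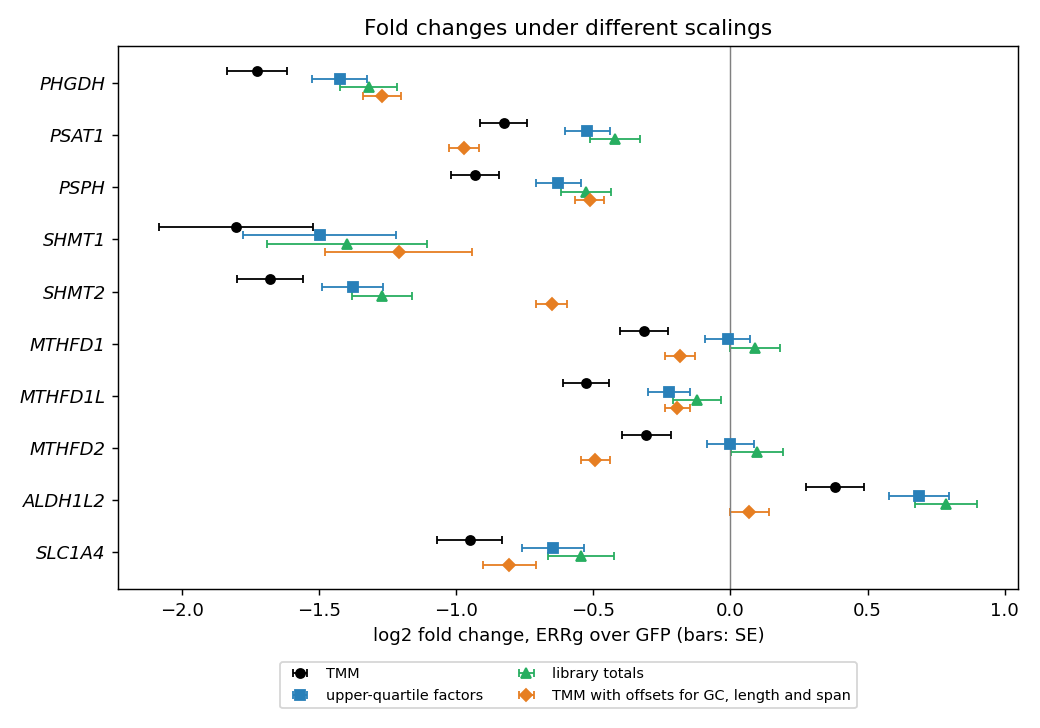
Log2 fold change, ERRg over GFP (x axis, bars are SE), of the 10 genes under 4 scalings from edgeR fits to 4 libraries per group. PHGDH, PSAT1, PSPH, SHMT1, SHMT2 and SLC1A4 lie left of 0 under all 4, and MTHFD1 and MTHFD2 reach 0.090 and 0.098 with library totals.

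Ratios of paired enzymes within a library need no scaling between libraries, and 6 were compared. Reads of PSPH per read of PHGDH went from 0.563, 0.493, 0.560 and 0.503 in GFP to 0.986, 0.951, 0.815 and 0.940 in ERRg (0.530 ± 0.0368 and 0.923 ± 0.0744, SD, n = 4 each). Reads of PSAT1 per read of PHGDH went from 0.833 ± 0.131 to 1.56 ± 0.236 (SD, n = 4 each). Neither ratio overlapped between groups, with log2 differences of 0.80 and 0.91. Each had an exact two-sided permutation p = 0.0286, the smallest that 4 against 4 allows, and 0.0571 after adjustment over the 6 ratios, which does not pass 0.05. In each ERRg library both ratios were above those of all GFP libraries. With the composition offsets the PSAT1 difference was 0.30 and the PSPH difference 0.76.

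The other 4 ratios compared mitochondrial with cytosolic partners. SHMT2 per SHMT1 read went from 126 ± 38.5 to 129 ± 37.9 (SD, n = 4 each), a log2 difference of 0.03 (exact permutation p = 1.00). The few SHMT1 reads limit its precision, and with the composition offsets the difference was 0.48 (exact permutation p = 0.114, adjusted p = 0.143). MTHFD2 per MTHFD1 read was 0.382 ± 0.0368 and 0.383 ± 0.0246 (exact permutation p = 0.943), and its log2 difference with the offsets was -0.31 (exact permutation p = 0.0286, adjusted p = 0.0714). MTHFD1L per MTHFD1 read was 0.657 ± 0.0624 and 0.564 ± 0.0338 (log2 difference -0.22, exact permutation p = 0.0571, adjusted p = 0.0857). With the composition offsets the log2 fold changes of MTHFD1L and MTHFD1 were nearly equal, -0.19 and -0.18. With the GC offset alone they were 0.02 and -0.08, the other way round. ALDH1L1, the cytosolic form of ALDH1L2, had at most 7 reads in any library, so the ALDH1L2 to ALDH1L1 difference of 2.69 on the log2 scale rests on the 0.5 read added to each count.

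**Figure D3:**
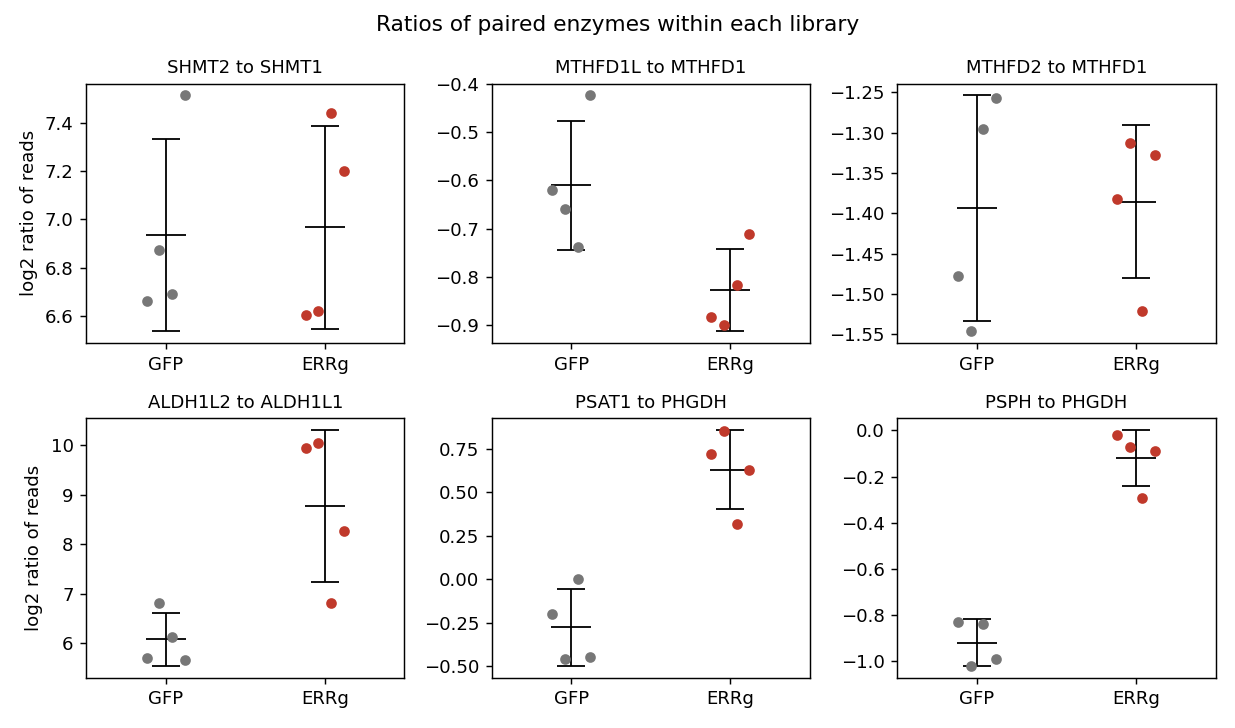
Log2 ratio of reads between paired enzymes (y axis, each panel with its own range) in each GFP (grey) and ERRg (red) library, with bars for the mean and SD of 4. PSAT1 to PHGDH and PSPH to PHGDH are separate between groups, differing by 0.91 and 0.80, and SHMT2 to SHMT1 and MTHFD2 to MTHFD1 overlap.

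Levels were ordered per kb of merged exons. In GFP the order was PSAT1 (54.2 ± 4.08 CPM per kb), SHMT2 (39.3 ± 4.23), PSPH (27.5 ± 1.39), MTHFD1L (22.6 ± 0.636), MTHFD1 (18.5 ± 1.68), PHGDH (15.6 ± 1.69), MTHFD2 (13.6 ± 1.16), SLC1A4 (2.28 ± 0.161), ALDH1L2 (1.69 ± 0.162) and SHMT1 (0.216 ± 0.0544) (SD, n = 4). Of neighbours in that order, MTHFD1 and PHGDH overlapped, as did PHGDH and MTHFD2. In ERRg, PSAT1 stayed first (30.6 ± 0.899), MTHFD1L, MTHFD1, PSPH, SHMT2 and MTHFD2 followed from 15.7 to 10.98 with each overlapping the next, and PHGDH came seventh (4.72 ± 0.690). ALDH1L2 (2.20 ± 0.214) stood above SLC1A4 (1.18 ± 0.172) there, and SHMT1 remained last (0.0618 ± 0.00656). Merged exons of PHGDH span 9217 bases against 3180 in its longest transcript, and per kb of longest transcript it placed higher, after SHMT2 and PSAT1, in GFP.

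Around these genes, 85 others in 6 lists were examined, and 72 passed the filter. Of these, 44 were lower and 17 higher with TMM (median log2 fold change -0.49). For counts with TMM, the background here and for each list below is 35.9% of all genes lower and 38.8% higher. With library totals 30 were lower and 25 higher, against 24.5% and 53.6% of all genes. With the composition offsets 39 were lower and 16 higher, against 41.7% and 30.4% of coding genes. The shares for library totals and for the offsets are likewise the background of such counts in each list below.

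Among 6 tested regulators, 3 were lower and 3 higher (median -0.37). The median was 0.034 with library totals and 0.14 with the composition offsets. MYC, a growth-promoting transcription factor, fell from 44.9 ± 2.55 to 20.9 ± 1.97 CPM (SD, n = 4 each, log2 fold change -1.10, SE 0.10), and was at -0.22 with the composition offsets. ATF4 was at 241 ± 10.8 CPM in GFP. In ERRg it was at 123 ± 7.04 CPM, a fall of 0.97 on the log2 scale (SE 0.08, edgeR adjusted p = 2.28e-09), and with the composition offsets it was at 0.057 (edgeR adjusted p = 0.389). Of 16 tested targets of ATF4 outside the set, 11 were lower and 4 higher (median -1.26, and -0.30 with the offsets, 9 lower and 4 higher). PYCR1, a proline synthesis enzyme, fell by 2.08 (SE 0.15), EIF4EBP1, a translation repressor, by 1.76 (SE 0.13) and the transcription factor ATF5 by 1.43 (SE 0.10) on the log2 scale. These 3 values were -0.87, -0.50 and -0.24 with the offsets. SESN2 and PCK2 were listed at 0 in all 8 libraries.

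Of 14 tested folate enzymes and transporters, 9 were lower and 4 higher (median -0.54), and 6 and 5 with library totals. FPGS, which retains folates in cells by adding glutamate, fell from 99.7 ± 14.9 to 28.9 ± 7.44 CPM (-1.79, SE 0.14). SLC19A1, the reduced folate carrier, fell by 1.41 (SE 0.13), and ATIC, which uses formyl-folate in purine synthesis, by 1.04 (SE 0.09) on the log2 scale. With the composition offsets 7 were lower and 2 higher, against 41.7% and 30.4% of coding genes, and FPGS (-0.62), SLC19A1 (-0.34) and ATIC (-0.59) were lower by less.

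The glycine cleavage system, which breaks glycine down into a one-carbon unit in mitochondria, gave 1 higher and 1 lower of 4 genes. DLD, a subunit shared with other dehydrogenase complexes, rose by 1.12 (SE 0.10), and by 0.72 with the composition offsets. GLDC, the glycine decarboxylase, fell by 0.38 (SE 0.08, edgeR adjusted p = 3.89e-04) with TMM but was at 0.026 with library totals and 0.0097 with the composition offsets. With the GC offset alone GLDC was called higher (0.16, SE 0.06, edgeR adjusted p = 0.0162). GCSH, the lipoate carrier, was at 0.24 (SE 0.15, edgeR adjusted p = 0.152), and at 0.54 and 0.65 with upper-quartile factors and library totals, where it was called.

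Of 24 tested genes of serine and glycine transport and use, 17 were lower and 4 higher (median -0.53), and 17 and 3 with the composition offsets. With library totals 10 were lower and 6 higher (median -0.12). SLC1A5, the glutamine and serine exchanger of the same family as SLC1A4, fell from 183 ± 16.8 to 52.9 ± 8.19 CPM (-1.79, SE 0.11). SFXN3, a mitochondrial serine carrier, fell by 1.498 (SE 0.10), and SDSL, which is related to serine dehydratase, by 1.57 (SE 0.14) on the log2 scale. SLC1A5 was at -0.65, SFXN3 at -0.57 and SDSL at -0.41 with the offsets. In the methionine cycle, 3 of 8 tested genes were lower and 1 higher (median -0.18), a share lower that is near the 35.9% of all genes. With library totals 1 was lower and 5 higher, against 24.5% and 53.6% of all genes. The median was then 0.22, against 0.50 over all genes. With the offsets 4 were lower and 3 higher, against 41.7% and 30.4% of coding genes. AHCY, which hydrolyses S-adenosylhomocysteine, fell from 393 ± 53.6 to 135 ± 19.7 CPM (-1.54, SE 0.11), and was at -0.75 with the offsets. MTR, the folate-dependent methionine synthase, rose by 0.30 (SE 0.09, edgeR adjusted p = 0.00544) and was at 0.097 with the offsets (edgeR adjusted p = 0.104). It was not called without GFP replicate 1 (0.20, edgeR adjusted p = 0.0854) or GFP replicate 4 (0.21, 0.0685), or with ERRg replicates summed in pairs (0.27, 0.0514). MAT2B, a regulatory subunit, was at -0.34 (SE 0.09, edgeR adjusted p = 0.00166), at 0.058 with library totals, at -0.74 with the offsets and at -0.92 with the GC offset alone.

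**Figure D4:**
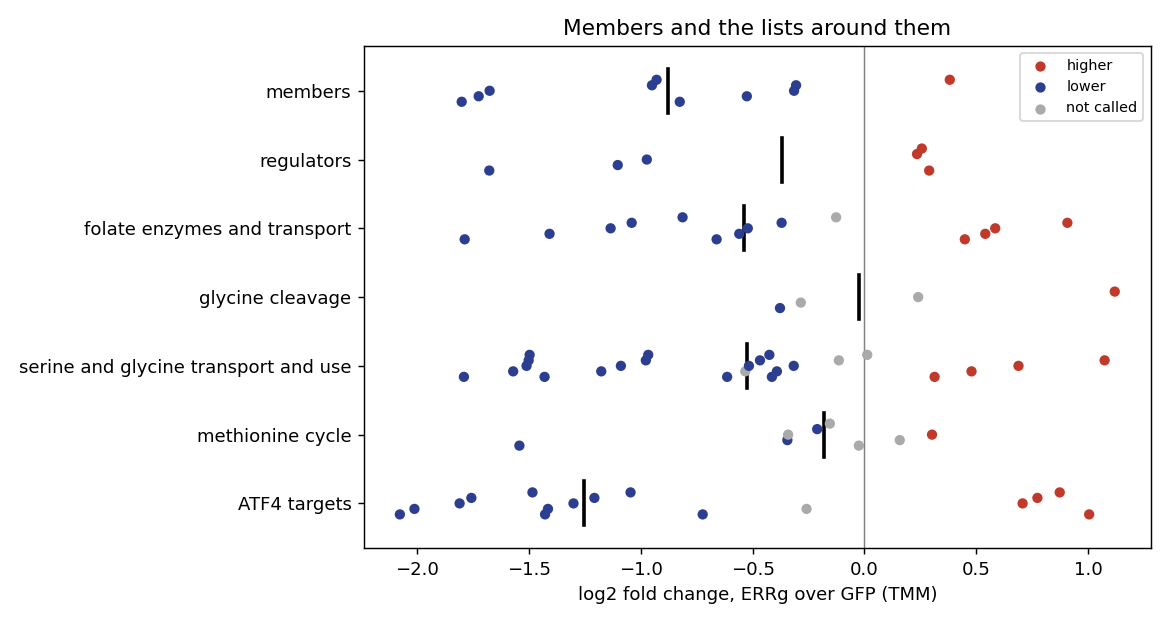
Log2 fold change, ERRg over GFP with TMM (x axis), of each tested gene of the set and of the 6 lists around it (rows). Colours give the edgeR call and vertical bars the median, which is -0.88 in the set and -1.26 among ATF4 targets.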

How the data were processed

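The deposited values are read counts for each gene, which the authors had not normalised. The submitters' processing notes name STAR 2.7.8a, HTSeq 0.11.3, Trim Galore 0.6.6, CASAVA, DESeq2 and the build GRCh38. Which annotation release and strand setting the counting used is not stated there. Libraries were depleted of ribosomal RNA and directional, per the labels' protocols. The 5 summary lines that name no gene (58.0% to 59.3% of reads in ERRg, 41.8% to 47.3% in GFP) entered neither library sizes nor tests.

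Genes were compared with edgeR 4.0.16 in R 4.3.3 (quasi-likelihood test, TMM, filterByExpr, two-sided, Benjamini-Hochberg adjustment over all 21993 genes), with group as the sole term. The test was checked on simulated data with few changed genes and no effect of GC content. These libraries differ in both respects, so that check does not cover their setting. A table of gene names gave symbols for 60463 identifiers. Positions, exons, GC content and lengths came from GENCODE 29 on GRCh38 (58488 identifiers). Offsets were fitted per library with natural splines (5 degrees of freedom each) over coding genes.

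The 10 genes, the 6 lists and the tests were chosen with earlier results of these data known. All 10 genes are named, and in each list the 3 genes of smallest p, of which 1 is not reported here. Whether replicates were separate cultures is not in the labels. The spread behind each p-value is that of these samples and may be technical. Alternatives were DESeq2 1.42.0 (size factors and Wald test), limma-voom (limma 3.58.1), other factors and filters, the offsets, a composition covariate, the replicate number as a block and each library left out. Summing ERRg replicates in pairs was chosen after seeing the data.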

Additional observations from a re-analysis of the deposited data

Results flagged for a closer look

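In 2 of 32 sets of 4 values (10 genes and 6 ratios in both groups), 1 library stood apart from the other 3, where chance gives about 1 in 20. MTHFD2 was at 74.6 CPM in GFP replicate 3, against 63.1 to 63.4 CPM in the other GFP libraries, a gap of 0.980 of the range. Without that library its log2 fold change was -0.33. ALDH1L2 was at 16.4 CPM in the same library, against 13.6 to 14.0 CPM in the others, a gap of 0.872 of the range. Without it the log2 fold change was 0.36.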

How the results depend on the processing

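PHGDH, PSAT1, PSPH, SHMT1, SHMT2 and SLC1A4 were lower under each alternative but the composition covariate, with which none of the 10 genes was called (0 higher, 0 lower) and none of the 72 others (0 and 0). The count of higher genes was also 0 with the offset for GC content and with the 3 offsets. Leaving out each library in turn gave 9 lower and 1 higher each time, as did summing ERRg replicates in pairs, and 43 to 46 lower and 13 to 16 higher among the others. Directions turned with library totals in MTHFD1 (0.090), MTHFD2 (0.098), GLDC (0.026) and MAT2B (0.058), with the covariate in MTHFD1 (0.23), with the GC offset in MTHFD1L (0.022), GLDC (0.16) and GCSH (-0.12), and with the 3 offsets in ATF4 (0.057), GLDC (0.0097) and MTHFD2L (-0.10). With library totals the median of all genes had itself moved from 0.09 to 0.50. The cause of the other turns was not tested. The MTHFD2 to MTHFD1 difference was -0.31 with the offsets (exact permutation p = 0.0286, adjusted p = 0.0714). Without the offsets and with 1 library left out, that difference ran from -0.043 to 0.054, and the SHMT2 to SHMT1 difference from -0.13 to 0.23. The ALDH1L2 to ALDH1L1 ratio has no value with the offsets or without a pseudocount. Same-numbered libraries did not deviate together (correlations -0.158 to 0.0878, and not every library correlated best with its own number). With the replicate number as a block, 9 of the 10 genes were lower and 1 higher, the same as without it. Depth limits SHMT1 most, at 10 to 54 reads per library.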

Other observations

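The genes given here belong to the lists around these enzymes and were chosen after their values were seen. MTHFD2L, a mitochondrial relative of MTHFD2, rose from 11.04 ± 0.154 to 16.6 ± 1.89 CPM (SD, n = 4 each, log2 fold change 0.59, SE 0.11, edgeR adjusted p = 5.22e-05), but its log2 fold change with the composition offsets was -0.10. SLC38A1, a sodium-coupled transporter of neutral amino acids including glutamine and serine, rose from 224 ± 23.2 to 472 ± 51.4 CPM (1.07, SE 0.10, edgeR adjusted p = 6.15e-09). With the offsets it remained higher (0.64).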
